A study of Mus musculus with 5 samples.

Results

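The metallothionein genes Mt1 and Mt2, the metal transporter genes Slc39a14, Slc30a1 and Slc30a10 and the metal-sensing transcription factor gene Mtf1 were followed in mouse hepatocytes between feeding and 24 h without food. The 6 genes were picked by symbol from the 32285 genes of the series, and all 6 were found under 1 gene identifier each. Mt1 and Mt2 had been picked because their 4 h ratios to fed were the highest of these data, so that their levels over time are given as a description. Hepatocytes were taken by a rule on each barcode, with at least 1000 UMIs (unique molecular identifiers, which count captured RNA molecules), at least 500 genes and 2 to 30% of UMIs from the mitochondrial genome, whose gene symbols begin with mt- and are not metallothioneins. In all 28810 of 50000 barcodes met the rule.

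Droplet single-cell RNA libraries had been made from hepatocytes isolated from male C57BL/6J mice with the WT genotype, kept on chow, and the series title names gluconeogenic gene expression as the question. Every mouse was trained for 3 days with 16 h of fasting overnight and 8 h of feeding by day, and on the final day was given chow with drinking water holding 20% sucrose. The fed library (0 h) was taken after 4 h of that feeding, at clock hour 13, and the fasted libraries 4, 8, 16 and 24 h after food and sucrose had been withdrawn, at clock hours 17, 21, 5 and 13. There was 1 library at each time, the number of mice behind a library is not given in the sources used here, and time of day cannot be told apart from fasting time except between 0 and 24 h.

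Metallothioneins are small, cysteine-rich proteins that bind zinc and copper, buffer the free zinc of the cell and take up toxic metals such as cadmium. MTF-1, the protein of Mtf1, senses zinc and binds metal response elements, short sequences with the core TGCACNC or TGCGCNC, ahead of metallothionein genes and of Slc30a1. In liver the metallothionein genes are also known to respond to glucocorticoids and to interleukin 6. The Slc39a family carries zinc into the cytosol and the Slc30a family carries it out. Slc39a14 (ZIP14) takes up zinc, manganese and iron, Slc30a1 (ZnT1) exports zinc at the plasma membrane, and Slc30a10 (ZnT10) exports manganese.

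The metallothionein genes form a cluster on mouse chromosome 8, and the sequence ahead of Mt1 and Mt2 is shown with its metal response element cores marked. In GENCODE M21 (GRCm38), Mt2 (ENSMUSG00000031762) lies at chr8:94172664-94173568 and Mt1 (ENSMUSG00000031765) at chr8:94179082-94180327, both on the plus strand, with 5513 bases and no annotated gene between them. Mt4 and Mt3 stand upstream in the same orientation at chr8:94137197-94139031 and chr8:94152607-94154146. The 250 bases before the RefSeq start of each gene follow, 5′ to 3′ on the plus strand of GRCm38.p6, with the cores in capitals. They cover chr8:94178839-94179088 for Mt1 and chr8:94172368-94172617 for Mt2.
Mt1: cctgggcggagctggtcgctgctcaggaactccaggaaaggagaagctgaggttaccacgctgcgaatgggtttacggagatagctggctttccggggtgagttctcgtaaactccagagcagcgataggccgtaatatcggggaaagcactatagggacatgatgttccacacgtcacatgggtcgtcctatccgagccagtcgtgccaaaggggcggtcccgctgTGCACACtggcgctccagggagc
Mt2: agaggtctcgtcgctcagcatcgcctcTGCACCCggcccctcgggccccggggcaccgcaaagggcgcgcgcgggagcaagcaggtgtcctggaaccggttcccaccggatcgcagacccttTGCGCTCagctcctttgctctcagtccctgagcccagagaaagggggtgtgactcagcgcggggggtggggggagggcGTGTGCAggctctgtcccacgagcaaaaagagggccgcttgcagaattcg

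On both strands the window held 1 core ahead of Mt1 and 3 ahead of Mt2. Of 32851 RefSeq windows of the same length, 21.4% held at least 1 core and 1.26% at least 3. The windows of Slc30a1, Slc30a10, Mtf1, Mt3 and Mt4 held 1, 3, 0, 0 and 1, and 2 of the 3 in Slc30a10 overlapped each other on opposite strands. A match of these letters is a description and not a bound site.

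Further cores lay closer to the coding sequence, within the annotated first exon ahead of the start codon, which is 229 bases long in the longest Mt1 leader and 184 bases long in that of Mt2. GENCODE M21 places later starts of Mt1 inside this stretch, so that part of it stands upstream of those transcripts. Mt1 held 4 cores there, beginning 220, 202, 138 and 124 bases before the start codon, and Mt2 held 3, beginning 172, 153 and 119 bases before it. TATAAA stood 101 bases before the start codon in Mt1 and 95 bases before it in Mt2, and neither printed window held it. The 46 bases between the Mt2 window and the annotated first exon of Mt2 were in neither search. Over the last 180 bases before the start codon Mt1 held 2 cores and Mt2 held 3. Of 12161 genes with a leader of that length, 3.24% held at least 2 and 0.584% at least 3. Each core is given with 6 bases on either side, 5′ to 3′ on the transcript strand and with the core in capitals.
Mt1, 220 bases before the start codon: gagctcTGCACTCcgcccg
Mt1, 202 bases before: gaaaagTGCGCTCggctct
Mt1, 138 bases before: cctgctGGGTGCAaaccct
Mt1, 124 bases before: acccttTGCGCCCggactc
Mt2, 172 bases before: aagggcGTGTGCAggcggc
Mt2, 153 bases before: gggggcGCGTGCAtggtgc
Mt2, 119 bases before: agctttTGCGCTCgaccca

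The other members lie apart from the cluster. Slc39a14 (ENSMUSG00000022094) is on the minus strand at chr14:70303469-70351425. Slc30a10 (ENSMUSG00000026614) and Slc30a1 (ENSMUSG00000037434) share chromosome 1, at chr1:185454848-185468762 and chr1:191906767-191913247, and Mtf1 (ENSMUSG00000028890) lies at chr4:124802104-124849800, these 3 on the plus strand. Whether the authors' counting used the strand is not given in the sources used here, so reads of overlapping genes cannot be told apart. The antisense Gm45774 over Mt2 had at most 29 UMIs in any library, but 1110065P20Rik, which overlaps Mtf1, had 24.1 to 68.6 CPM and so more than Mtf1 itself. The longest identical stretch of the main Mt1 and Mt2 transcripts was 20 bases.

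The 5 libraries held 10000 barcodes each and 40002260 to 68330252 UMIs. Hepatocytes by the rule numbered 7826, 4567, 2716, 9125 and 4576 at 0, 4, 8, 16 and 24 h, with median totals of 5408, 12097, 15005, 4391 and 8979 UMIs and median mitochondrial shares of 11.9, 19.1, 9.79, 13.7 and 16.3%. All 8 hepatocyte markers were present in every library, the lowest at 263 CPM. Levels are UMIs summed over the hepatocytes of a library as counts per 1000000 of their nuclear-encoded UMIs (CPM), with 95% intervals for counting error only. Barcodes with at least 3 markers of another cell type at 0.5% of UMIs or more (5% for erythroid markers) numbered 207, 8, 12, 48 and 35 among the hepatocytes. The 11 endothelial markers, none of them at 0, summed to 111, 14.1, 13.9, 39.05 and 23.7 CPM. Sequences of 519 barcodes occurred in more than 1 library, and the Mt1 and Mt2 ratios without them lay inside the intervals given. In such sums a change in the mix of cells and a change within cells cannot be told apart.

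Mt1 and Mt2 were low in the fed library and high in all 4 fasted libraries. Mt1 stood at 111 CPM when fed (108 to 115) and at 5308, 6149, 1452 and 1639.7 CPM after 4, 8, 16 and 24 h. Mt2 stood at 27.1 CPM when fed (25.4 to 28.8) and at 1839, 1716, 505 and 405 CPM. No fasted library came near the fed one for either gene, and the libraries of 4 and 8 h stood above those of 16 and 24 h. Summed, both genes went from 138 CPM to 7147, 7865, 1957 and 2044 CPM, which is from 0.0138% to at most 0.786% of all nuclear-encoded UMIs of the hepatocytes. The ratio of the sum to fed in time order was 51.7-fold (50.3 to 53.1), 56.8-fold, 14.1-fold and 14.8-fold.

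**Figure D1:**
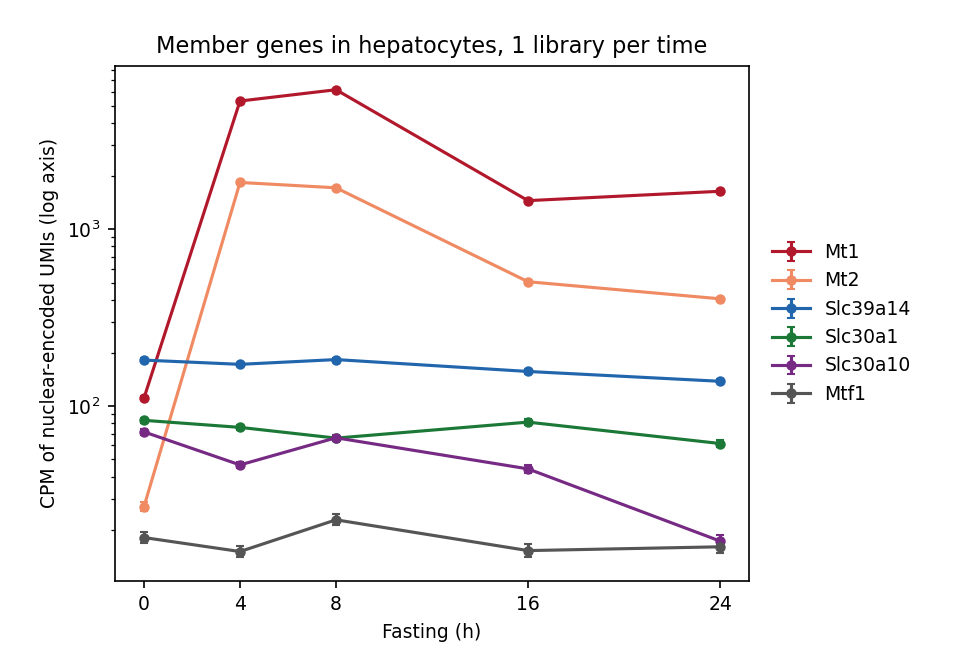
CPM of nuclear-encoded UMIs of the 6 genes (log axis) against fasting time, 1 library per time, with bars for the 95% Poisson interval of the count. Mt1 and Mt2 climb from 111 and 27.1 CPM to 5308 and 1839 CPM at 4 h, while the other 4 genes stay between 15.1 and 183 CPM throughout.

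On the log2 scale Mt2 was the gene with the highest 4 h ratio to fed (6.09, 6.00 to 6.18) of 2948 genes with 50 CPM or more in either library, and Mt1 followed in place 2 (5.58, 5.53 to 5.62). The next were Elovl3 (5.18), a fatty acid elongase gene, and Cdkn1a (4.93), the gene of the cell cycle inhibitor p21. These values chose both genes and support nothing. Of all genes 5.73% were at least 2-fold higher than fed and 5.97% at least 2-fold lower at 4 h. The split depended on scaling: with TMM factors 229, 369, 119 and 288 genes were higher and 120, 245, 98 and 224 lower at 4, 8, 16 and 24 h, in place of 169, 240, 99 and 199 higher and 176, 357, 121 and 317 lower. At 8 h, when 7.95% were higher and 11.8% lower, Mt2 (5.99) and Mt1 (5.79) took places 3 and 4. At 16 h, with 3.31% higher and 4.04% lower, they took places 4 and 5 (4.22 and 3.71). At 24 h, with 6.68% higher and 10.6% lower, they again took places 3 and 4 (3.902 and 3.881).

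The 24 h and the fed library share their hour of the day, and between them the sum differed by 3.89 on the log2 scale. In order of level the sum was highest at 8 h, then at 4, 24, 16 and 0 h, and no neighbouring pair in that order overlapped in its counting interval. The smallest step, 24 h against 16 h, was 0.06 (0.05 to 0.08), and 8 h against 4 h was 0.14 (0.13 to 0.15). The step from 4 to 8 h turned in 3 of 11 alternatives: the log2 ratios to fed at 4 and 8 h were 6.15 and 5.77 at 2 to 15% mitochondrial UMIs, 5.76 and 5.64 with barcodes under 2% included, and 5.70 and 5.59 as a mean of per-cell CPM. It also turned in all 4 bands of mitochondrial share given further on, so the order of the 4 and 8 h libraries is not fixed by these data. Mt2 alone was also higher at 4 than at 8 h. The step from 16 to 24 h turned among cells of 3000 UMIs or more, with 3.96 and 3.899. With TMM factors the median ratio to fed of all genes moved from -0.03 to 0.13 at 4 h and from -0.04 to 0.17 at 8 h.

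The balance of both genes was not constant. There were 4.11 Mt1 UMIs (3.84 to 4.41) for each Mt2 UMI in fed hepatocytes, then 2.89, 3.58, 2.87 and 4.05. The 4 and 16 h libraries had the lower ratios, with the intervals of 2.86 to 2.91 and 2.82 to 2.92, and the 24 h library was back in the range of the fed one, at 3.98 to 4.12. UMIs of a 3′ library count transcript ends, so the lengths of both genes do not enter this ratio. Of the other 2 genes of the cluster, Mt3, known as the form of the brain, had 3 UMIs in all hepatocytes (1 at 4 h and 2 at 8 h), and Mt4, known from squamous epithelium, had 0, for which the exact upper limit was 0.0810 to 0.110 CPM in a library.

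Mtf1, the gene of the zinc sensor, was low in every library. It stood at 18.1, 15.1, 22.8, 15.3 and 16.0 CPM, and no ratio to fed reached 1.5-fold in either direction. The 8 h library was the highest, 0.33 above fed on the log2 scale (0.18 to 0.48), and the remaining 3 lay 0.17 to 0.26 below fed. At 24 h the sign depended on the scaling, with a ratio of 0.0031 with TMM factors.

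Slc39a14, the importer, stayed within 1.5-fold of fed in every library in summed CPM. It stood at 182, 172, 183, 157 and 138 CPM, or -0.08, 0.01, -0.21 and -0.40 relative to fed on the log2 scale. Its 0 and 8 h values overlapped in counting error, and the lowest value was that of the 24 h library. With TMM factors the sign at 4 h changed, to 0.08, and at 8 h the sign changed in 4 of 11 alternatives, going no lower than -0.03. It was past 1.5-fold lower at 2 to 15% mitochondrial UMIs at 4 h (-0.65) and 24 h (-0.76), and at 24 h also with barcodes under 2% included (-0.77) and as a mean of per-cell CPM (-0.60).

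Slc30a1, the zinc exporter, stood at 83.2, 75.9, 66.0, 81.3 and 61.6 CPM, or -0.13, -0.33, -0.03 and -0.44 relative to fed. The 0 and 16 h libraries did not differ beyond counting error, and the 8 and 24 h libraries were the lowest. At 4 and 16 h the sign changed with TMM factors, to 0.03 and 0.05. It too stayed within 1.5-fold of fed in summed CPM of the hepatocytes, but at 24 h was past it with barcodes under 2% mitochondrial UMIs included (-0.81), at 2 to 15% (-0.74) and as a mean of per-cell CPM (-0.59).

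Slc30a10, the manganese exporter, was the only other member past 2-fold. It stood at 71.6 CPM when fed and at 46.6, 66.3, 44.2 and 17.3 CPM after 4, 8, 16 and 24 h. The ratio at 24 h was -2.05 on the log2 scale (-2.17 to -1.93), from 2705 UMIs in the fed and 650 in the 24 h library, and it lay between -2.34 and -1.87 over the 11 alternatives run. The 4 h (-0.62) and 16 h (-0.69) values were alike within counting error and below fed, the 4 h value was past 2-fold lower at 2 to 15% mitochondrial UMIs (-1.03), and the 8 h value (-0.11) turned to 0.10 with TMM factors. Gm2061, a noncoding gene on the opposite strand over Slc30a10, was at 0.639 to 3.41 CPM.

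Both transporter families were then read whole, as 14 Slc39a and 10 Slc30a genes. Few reached 50 CPM: 2 importers (Slc39a14 and Slc39a1) and 3 exporters (Slc30a1, Slc30a10 and Slc30a9). Of these 5 genes, over all hepatocytes, 0 were at least 2-fold from fed at 4, 8 and 16 h, and at 24 h 1 was, Slc30a10, which for so few genes is near the shares of all genes (5.73, 7.95, 3.31 and 6.68% higher and 5.97, 11.8, 4.04 and 10.6% lower). Slc39a1 (ZIP1), an importer at the plasma membrane, was 0.08, 0.09, 0.42 and 0.15 above fed, and Slc30a9 was -0.25, 0.10, -0.41 and -0.21 from it. The medians of the importers were 0.00, 0.05, 0.10 and -0.12 and those of the exporters -0.25, -0.11, -0.41 and -0.44, beside -0.03, -0.04, 0.00 and -0.03 for all genes.

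Below 50 CPM several family genes were far from fed. Slc39a10 (ZIP10), a plasma membrane importer, stood at 10.7 CPM when fed and at 4.11, 1.48, 3.31 and 1.68 CPM, which is -1.38, -2.85, -1.69 and -2.67 on the log2 scale. Slc39a6 (ZIP6), its close relative, stood at 9.55 CPM when fed and at 2.86, 4.44, 3.43 and 1.65 CPM, or -1.74, -1.11, -1.48 and -2.53. Both were more than 2-fold lower in all 4 fasted libraries, as were 7.09, 11.8, 4.26 and 8.77% of all genes of 5 to 50 CPM in time order, a range chosen after the values were seen. The exporters of the secretory pathway, Slc30a5 (46.8 to 21.4 CPM, -1.13) and Slc30a7 (29.6 to 13.3 CPM, -1.15), were past 2-fold lower at 8 h. Slc39a8 (ZIP8), the closest relative of Slc39a14, went the other way, from 22.5 CPM when fed to 28.1, 27.1, 40.2 and 28.2 CPM. Slc39a4 (ZIP4), known for zinc uptake in the gut, stood at 38.2 CPM when fed and at 23.1, 34.0, 36.8 and 19.5 CPM. Slc30a3, Slc39a5 and Slc39a12 also had ratios past 2-fold but reached at most 1.35 CPM in any library and are not read.

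**Figure D2:**
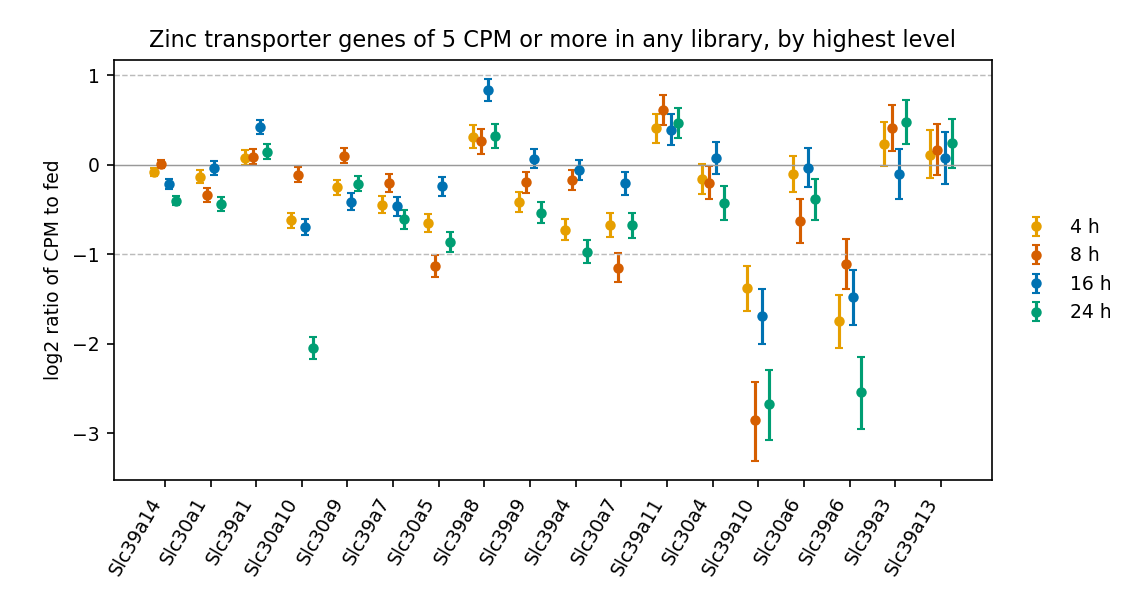
log2 ratio of CPM to the fed library for the 18 Slc39a and Slc30a genes of 5 CPM or more in any library, ordered by their highest level, with 95% counting intervals and dashed lines at 2-fold. Slc39a10 and Slc39a6 lie below the lower line at all 4 times, and Slc30a10 at 24 h only.

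Other metal genes were mostly within 2-fold. Of 11 genes for iron and copper handling with 50 CPM or more, 1 was past 2-fold lower at each time, Tfrc, the gene of the transferrin receptor, at 68.5 CPM when fed and 25.6, 13.6, 22.7 and 30.02 CPM when fasted. Such counts are near the shares of all genes, of which 5.97, 11.8, 4.04 and 10.6% were lower. At 24 h 1 was past 2-fold higher, the ferritin heavy chain gene Fth1, at 7515 CPM beside 3714 CPM when fed (1.02). Slc40a1, the gene of the iron exporter ferroportin, was highest at 16 h, at 304 CPM beside 170.1 CPM when fed.

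The 3 lists of genes for signals known to act on metallothionein gave different patterns over time. Of the glucocorticoid-responsive genes with 50 CPM or more, in time order 6 of 12, 7 of 11, 4 of 10 and 4 of 10 were at least 2-fold higher and 2, 2, 1 and 2 lower. Of all genes 5.73, 7.95, 3.31 and 6.68% were higher and 5.97, 11.8, 4.04 and 10.6% lower. Fkbp5, a chaperone that binds the glucocorticoid receptor complex, stood at 22.1, 134, 288, 37.7 and 122 CPM, and Tsc22d3 (GILZ) at 167, 204, 346, 158 and 172 CPM. The order over time differed between members of the list: Fkbp5 was highest at 8 h and Pck1 at 24 h, and from 16 to 24 h Fkbp5 was higher while Igfbp1 was lower (117 and 62.6 CPM). Pck1, Angptl4 and Igfbp1 were past 2-fold higher at all 4 times, Cdkn1a at 4 and 8 h (79.2 and 264 CPM beside 2.59 CPM when fed), Zbtb16 at 4 h (61.5 CPM beside 4.21 CPM when fed), and Tat and Tsc22d3 at 8 h. Under 50 CPM and so not counted, Zbtb16 still had log2 ratios to fed of 3.23 and 2.49 in the 8 and 24 h libraries, and Cdkn1a of 1.502 at 24 h. Also under 50 CPM, Per1, a gene of the circadian clock, was at 0.94, 1.56, 0.31 and 1.49 in time order, Sgk1, a kinase gene, at -0.98, 0.17, 1.25 and -0.42, and Lcn2 at 2.10 in the 4 h library. Dusp1 and Gadd45a, stress-responsive genes on the same list, were the lower members at 4, 8 and 24 h. Lcn2, which is also on the acute phase list, was higher at 16 h. The list median was 1.35, 1.08, -0.06 and 0.02 in time order.

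Acute phase and interleukin 6 genes had 3 of 16, 2 of 16, 6 of 18 and 1 of 16 past 2-fold higher in time order, and 1, 5, 1 and 5 lower, beside 5.73, 7.95, 3.31 and 6.68% of all genes higher and 5.97, 11.8, 4.04 and 10.6% lower. Saa2, a serum amyloid A gene, stood at 217, 1085, 12.8, 4946 and 9.66 CPM, high at 4 and 16 h and low at 8 and 24 h, and its reads may be split with the near-identical Saa1. Il6ra, the gene of an interleukin 6 receptor subunit, was past 2-fold higher at 4, 8 and 24 h (1.72, 1.75 and 1.49), and Steap4 was past 2-fold lower at all 4 times. Socs3, the gene of a feedback inhibitor of interleukin 6 signalling, was under 50 CPM and so not counted, at 31.4 CPM when fed and 7.66, 1.92, 12.6 and 2.18 CPM, more than 2-fold lower at all 4 times (-2.03, -4.03, -1.32 and -3.85). Lbp, the gene of the lipopolysaccharide-binding protein, was past 2-fold higher at 8 h (1.07). Past 2-fold lower were Orm2, an orosomucoid gene, at 8 and 24 h (-2.504 and -1.78), Fga, a fibrinogen gene, at 24 h (-1.04), Apcs at 8 h (-1.18) and Saa1 and Saa2 at 8 and 24 h. Orm3, a close paralog of Orm2 and under 50 CPM, was at -2.81 at 8 h. At 16 h Saa3, Fgb and Apcs were higher too. Lcn2, the gene of the iron-scavenging lipocalin, peaked in the same library, at 287 CPM at 16 h beside 10.7 CPM when fed. Members of this list too had different orders over time, with Saa2 highest at 16 h and Il6ra at 8 h (40.9, 135, 138, 68.8 and 115 CPM in time order). Of 7 genes of the Nrf2 response to oxidative stress 0 were higher, and 0, 1, 0 and 1 lower, in both libraries Prdx1, which is near the shares of all genes. Of the list's genes under 50 CPM, Gsta1, a glutathione transferase gene, was at 3.20 CPM when fed and at 7.599, 9.58, 1.49 and 5.53 CPM. Hmox1, the haem oxygenase gene and a well known responder to metals and oxidants, was at 13.5 CPM when fed and at 5.40, 4.70, 11.3 and 2.93 CPM.

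Among 3287 genes with 50 CPM or more in any library, the gene whose 4 ratios to fed lay nearest to those of the Mt1 and Mt2 sum was Nlrp12, by a root mean square distance of 0.95 over the 4 log2 ratios. It was at 5.56 CPM when fed and at 101, 171, 46.1 and 84.6 CPM. Next came Angptl4 (1.07), an inhibitor of lipoprotein lipase, Acot1 (1.22), an acyl-CoA thioesterase, Elovl3 (1.499) and Igfbp1 (1.99), a fasting-induced binding protein of insulin-like growth factors. All 5 were further from fed at 4 and 8 h than at 16 h, and they share the fed library with the sum.

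Cell by cell, the fed and the fasted libraries hardly overlapped at 4 and 8 h. The median Mt1 and Mt2 level per hepatocyte was 0 CPM when fed, with 34.5% of cells holding at least 1 UMI, and 6645, 6388, 1253 and 1833 CPM after 4, 8, 16 and 24 h. The 5th percentile was 2197 CPM at 4 h and 1820 CPM at 8 h, both above the 95th percentile of fed cells, 673 CPM. Above that fed value lay 99.8, 98.97, 67.6 and 86.2% of hepatocytes in the 4 fasted libraries. The 16 h library ran from 499 CPM at the 25th to 2596 CPM at the 75th percentile, with 1049 of 9125 cells holding no metallothionein UMI at a median total of 4391 UMIs.

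**Figure D3:**
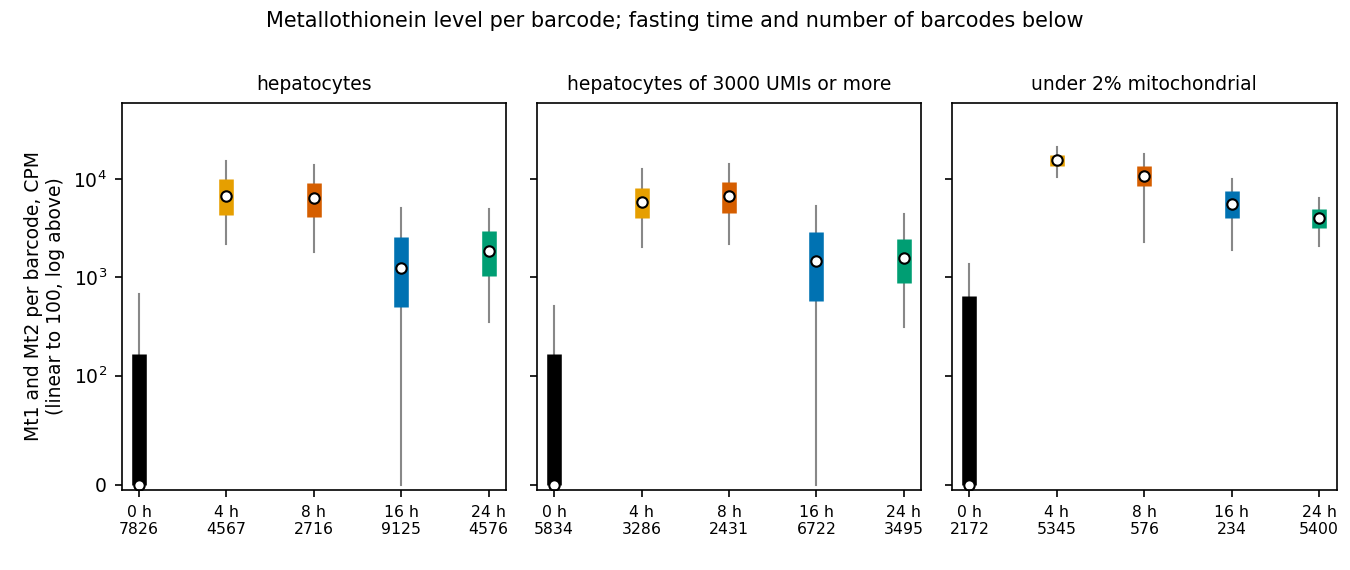
Mt1 and Mt2 CPM per barcode (axis linear to 100 and log above) for hepatocytes, hepatocytes of 3000 UMIs or more, and barcodes under 2% mitochondrial UMIs; circles are medians, thick bars the 25th to 75th and thin lines the 5th to 95th percentile, with the number of barcodes under each time. In each set the 4 and 8 h barcodes lie highest, and the barcodes under 2% lie above the hepatocytes at every fasted time.

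After thinning each cell to 1000 nuclear-encoded UMIs, an Mt1 UMI was seen in 9.83% of fed hepatocytes (9.18 to 10.5%) and in 96.0, 95.5, 59.8 and 73.7% of fasted ones. Unthinned, the shares were 30.4, 99.8, 99.2, 83.9 and 97.8%. In barcodes with endothelial markers, cells that make metallothionein too and are thus no clean background, the thinned shares were 30.3% of 155, 71.4% of 7, 66.7% of 9, 81.1% of 37 and 81.2% of 16, at median depths of 1723, 3527, 1631, 1184 and 2859 UMIs. The hepatocyte share was above the interval of the endothelial one at 8 h (29.9 to 92.5%) and below it at 0 h (23.2 to 38.2%) and 16 h (64.8 to 92.0%). At 4 h, with 7 endothelial barcodes (29.0 to 96.3%), and at 24 h (54.4 to 95.95%) the interval held the hepatocyte share, and the shares of 0, 4, 16 and 24 h are not read further. For Slc39a14 the thinned share was 15.6, 14.1, 16.6, 14.8 and 11.3% of hepatocytes, beside 2.58% of endothelial barcodes when fed and 0 of 7, 9, 37 and 16 later. For Slc30a10 it was 6.53% when fed and 1.35% at 24 h.

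Mt1 and Mt2 varied together across cells. Over hepatocytes of 3000 UMIs or more, Pearson's r of their log levels was 0.28, 0.70, 0.74, 0.60 and 0.49 in time order (n = 5834, 3286, 2431, 6722 and 3495 cells). These are descriptions over cells of 1 library each, which share depth and cell quality, and in the fed library most cells had no UMI of either gene.

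Metallothionein also moved with the mitochondrial share of a barcode, a sign of cell quality. Within hepatocytes, barcodes of 2 to 5% mitochondrial UMIs had 359, 12964, 8239, 2656 and 3717 CPM of Mt1 and Mt2 in time order, those of 5 to 10% had 164, 11446, 7984, 3080 and 2458 CPM, and those of 20 to 30%, only 20 cells at 8 h, had 52.3, 5892, 5652, 567 and 1256 CPM. The band of 2 to 5% was above that of 20 to 30% in all 5 libraries, and within each band the 4 fasted libraries stood above fed. Among barcodes of 10 to 20%, which held 1248 to 7655 hepatocytes in each library, the levels were 125, 7947, 7723, 1904 and 2105 CPM. In each of the 4 bands the 4 h library was above the 8 h one, the reverse of all hepatocytes (7147 and 7865 CPM), though in the band of 20 to 30% the counting interval of 8 h (5135 to 6207 CPM) held the 4 h value. The 24 h library was above the 16 h one in 3 bands and below it in the band of 5 to 10%. The part of cell quality in the ratios to fed was not tested beyond these values and the alternatives with other limits.

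Barcodes under 2% mitochondrial UMIs, which the rule leaves out, held more metallothionein and less of the 3 transporters than hepatocytes. They numbered 2172, 5345, 576, 234 and 5400, with median nuclear-encoded totals of 1136 to 2624 UMIs. Mt1 and Mt2 stood there at 382 CPM when fed and at 15355, 12131, 5916 and 4040.4 CPM, above the hepatocytes of the same library in all 5. Slc39a14 stood at 42.2, 25.6, 43.2, 30.5 and 19.3 CPM and albumin at 11835 to 31109.9 CPM, against 50329.5 to 82747 CPM in hepatocytes. The 5 erythroid markers, mostly haemoglobin genes, summed there to 416, 34.9, 49.7, 53.4 and 3354 CPM, beside 35.6, 31.1, 66.998, 24.5 and 35.3 CPM in hepatocytes, so that the 24 h and the fed library stood out among these barcodes. The Mt1 to Mt2 UMI ratio in these barcodes was 7.93, 3.87, 8.05, 5.02 and 6.51, outside the counting interval of the hepatocyte ratio in each library. The 6675 barcodes of the 8 h library under 1000 UMIs or 500 genes held 9227 CPM of Mt1 and Mt2. How much of the metallothionein UMIs of hepatocytes came from such RNA was not tested.

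Position along the liver lobule was read from Cyp2f2, highest in hepatocytes near the portal vein, and Cyp2e1, highest near the central vein. The hepatocytes of each library were ordered by the log2 ratio of both genes and cut into 3 equal parts. Mt1 and Mt2 summed to 132, 5414, 6819, 1801 and 2529 CPM in the central part, 149.9, 8062, 8696, 2119 and 2104 CPM in the middle part and 129, 7311, 7732, 1926 and 1732 CPM in the portal part. The middle part was the highest at 0, 4, 8 and 16 h, and the central part at 24 h. The central part of the 24 h library is central by its ratio of Cyp2f2 to Cyp2e1 only: Glul, the gene of glutamine synthetase that marks cells around the central vein, stood at 46.6, 53.7 and 54.99 CPM in its central, middle and portal parts, against 316, 169 and 161 CPM when fed. Cyp2e1 over all hepatocytes was at 478 CPM in that library and at 1404 CPM when fed. The portal to central log2 ratio was -0.03 (-0.14 to 0.08), 0.43 (0.42 to 0.45), 0.18, 0.10 and -0.55 (-0.57 to -0.52), which in no library reached 1.5-fold.

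Depth and cell quality went along with these parts. The median nuclear-encoded UMI count was 2531, 2599, 9858, 3353 and 2769 centrally and 5003, 15077, 14017, 3688 and 9031 on the portal side, and at 24 h the median mitochondrial share went from 11.1% centrally to 18.4% on the portal side. The 4 h ratio was -0.09 among cells of 2 to 15% mitochondrial UMIs, -0.25 with barcodes under 2% included and -0.21 as a mean of per-cell CPM, so its sign is not fixed by these data. Within depth bins the 4 h ratio was 0.12 and the 8 h ratio -0.0013. At 16 h the ratio was -0.20 by a score of portal and central landmark genes. The 24 h ratio stayed negative in all 10 alternatives, from -0.86 to -0.34. The split of cells by metallothionein level, given further on, pointed the other way at 24 h, with less Cyp2e1 in the high cells (-0.59). Why they differ was not tested.

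A finer cut into 10 parts, chosen after the data had been seen, showed lower levels at both ends of the axis than in its middle at 0, 4, 8 and 16 h. In the most central part Mt1 and Mt2 stood at 71.0, 3697, 5362, 1582 and 2158 CPM and in the most portal part at 88.5, 6565, 5987, 1521 and 1178 CPM, beside 149, 8414, 8929, 2161 and 2116 CPM in the 2 middle parts together. The middle was above the most central part by 1.07 (0.86 to 1.28), 1.19 (1.16 to 1.21), 0.74 (0.71 to 0.76) and 0.45 (0.40 to 0.50) as log2 ratios in the 0, 4, 8 and 16 h libraries, and level with it at 24 h (-0.03, -0.07 to 0.02). It was above the most portal part by 0.75, 0.36, 0.58, 0.51 and 0.84.

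Among hepatocytes of 3000 UMIs or more the same comparison gave 1.38, 1.25, 0.71, 0.44 and 0.0066 against the central end and 0.73, 0.39, 0.53, 0.41 and 0.86 against the portal end. The median depth of the most central part was then 5089, 10445, 12248, 4298 and 6336 UMIs, below that of the middle. The central end of the 0, 4, 8 and 16 h libraries was the part with the most Glul, at 542, 532, 171 and 524 CPM. At 24 h Glul was not graded, at 52.6 CPM in the most central and 49.5 CPM in the most portal part.

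**Figure D4:**
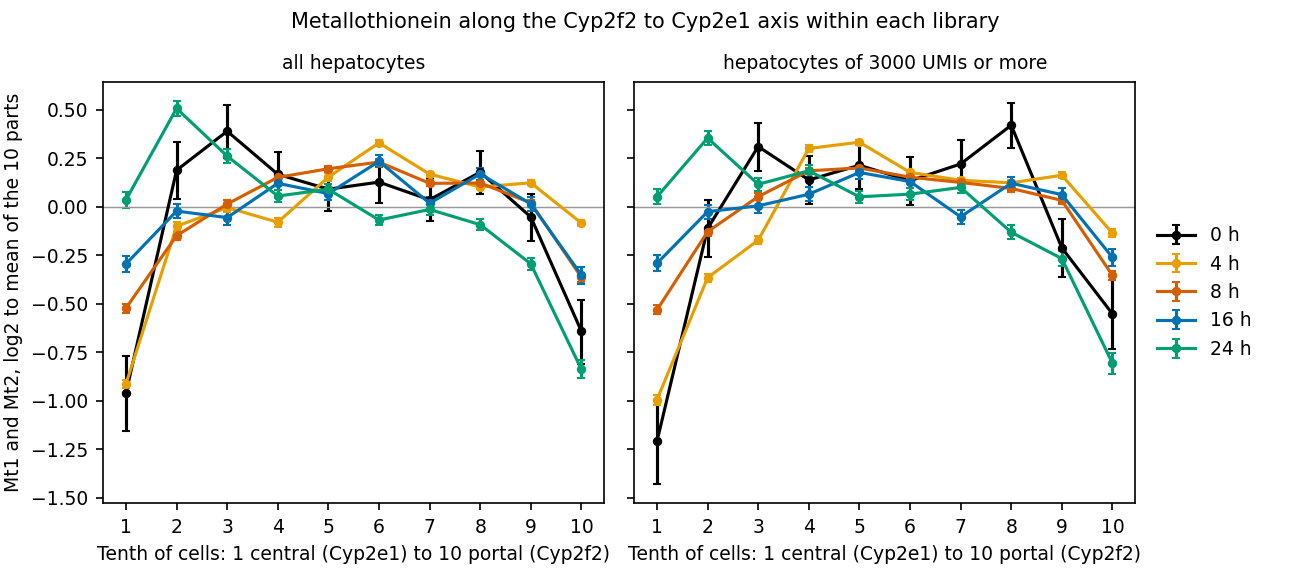
Mt1 and Mt2 CPM in 10 equal parts of the hepatocytes of each library ordered from central (1) to portal (10), as log2 of the mean over the 10 parts, with 95% counting intervals, for all hepatocytes and for those of 3000 UMIs or more. At 0 to 16 h the curves bend down at both ends, and at 24 h they slope down from part 2 to part 10.

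Slc30a10 and Slc39a14 were higher on the portal side in all 5 libraries. Slc30a10 had portal to central log2 ratios of 0.64 (0.48 to 0.80), 0.94 (0.75 to 1.13), 0.61 (0.44 to 0.78), 0.38 (0.19 to 0.58) and 0.91 (0.54 to 1.29). Its sign held under all 10 alternatives. In the fed library it stood at 51.2, 76.8 and 79.6 CPM in the central, middle and portal parts, and at 24 h at 10.5, 18.4 and 19.6 CPM. Its lower level at 24 h was thus seen in every part, at -2.29, -2.06 and -2.02 relative to the part of the same name in the fed library. Past 1.5-fold towards the portal side were 1.76, 4.10, 1.52, 2.64 and 8.00% of genes in time order, and towards the central side 4.76, 6.63, 3.44, 5.70 and 17.2%. Slc30a10 was past it on the portal side at 0, 4 and 8 h, and at 24 h also, though under 50 CPM there. All 4 were below 1.5-fold when the parts were matched for depth, at 0.38, 0.57, 0.46 and 0.39 within depth bins and 0.33, 0.54, 0.45 and 0.35 within depth bins of cells with 3000 UMIs or more. Other alternatives raised the ratio, to at most 1.09, 1.39, 1.05, 0.68 and 1.89 in time order, so that 16 h passed 1.5-fold as well.

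Slc39a14 was higher on the portal side by 0.27, 0.24, 0.32, 0.17 and 0.62, above 0 beyond counting error in each library, and its sign held in all 10 alternatives. At 24 h it went from 100.4 CPM in the central to 154 CPM in the portal part, but the ratio of that library ranged from 0.14 within depth bins of cells with 3000 UMIs or more to 1.91 at 2 to 15% mitochondrial UMIs. Slc30a1 had ratios of 0.18, 0.32, -0.10, 0.09 and 0.77, of which those of 8 and 16 h did not differ from 0 beyond counting error. In the split over all hepatocytes these 2 genes passed 1.5-fold at 24 h, when 17.2% of genes passed it in the other direction. The central part was shallow in that library, as it was at 0 and 4 h. Neither gene passed 1.5-fold within depth bins, with 0.16 for Slc39a14 and 0.42 for Slc30a1, beside the 0.39 of Slc30a10. Other limits on the barcodes took both genes past 1.5-fold at 4 h as well. Slc39a14 was then at 1.42 at 2 to 15% mitochondrial UMIs, 0.78 with barcodes under 2% included and 0.75 as a mean of per-cell CPM. Slc30a1 was at 0.93, 0.90 and 0.67 under the same 3. With barcodes under 2% included Slc39a14 also passed it at 0 h (0.71) and 8 h (0.61), and at 24 h Slc30a1 ranged up to 1.75. Mtf1 showed no gradient that its counts could resolve, with ratios of 0.05 to 0.26 whose intervals all held 0.

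**Figure D5:**
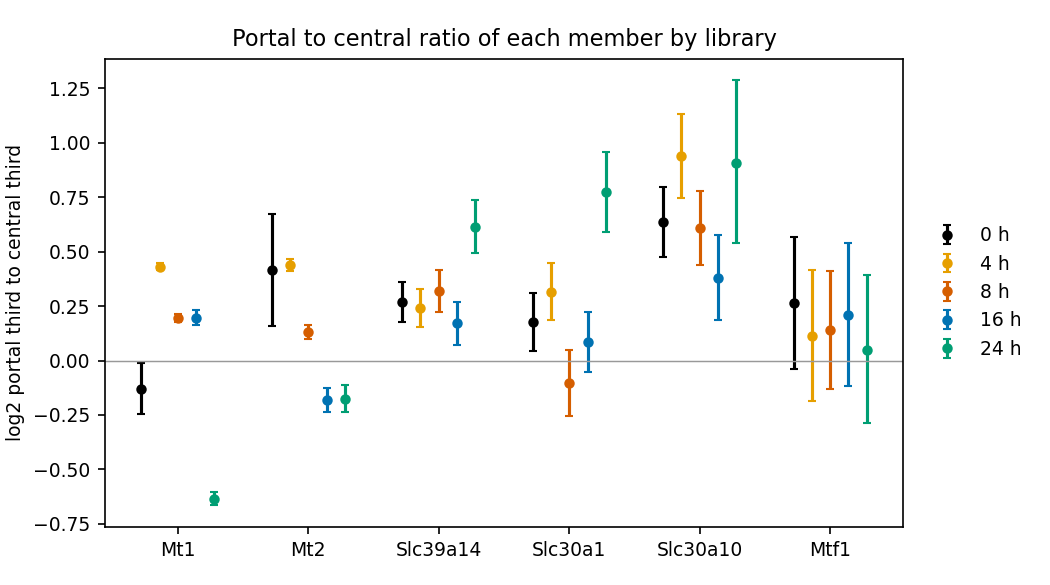
log2 ratio of CPM in the portal to the central of 3 equal parts for the 6 genes in each library, with 95% counting intervals. Slc30a10 and Slc39a14 lie above 0 in all 5 libraries, while Mt1 is above 0 at 4, 8 and 16 h and lowest at 24 h (-0.63).

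Mt1 and Mt2 did not follow the axis alike in every library. At 4 h they were alike (0.43 and 0.44), and at 8 h both were positive (0.20 and 0.13). At 24 h Mt1 was at -0.63 (-0.66 to -0.60) and Mt2 at -0.17 (-0.24 to -0.11). At 16 h they had opposite signs, 0.20 for Mt1 and -0.18 for Mt2, but by the landmark score both were negative (-0.09 and -0.50). In the fed library Mt2 was higher on the portal side (0.42, 0.16 to 0.68) and Mt1 was not (-0.13, -0.25 to -0.01). The fed sign of Mt1 changed in 3 of 10 alternatives, to at most 0.17, and that of Mt2 in 1, to -0.09 as a mean of per-cell CPM.

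To see what else marked cells rich in metallothionein, hepatocytes were split into 3 equal parts by their Mt1 and Mt2 level within 10 bins of equal depth, and the outer parts compared. The high cells had 378, 10632, 11707, 3817 and 3534 CPM of Mt1 and Mt2 and the low cells 0, 4003, 4418, 484 and 825 CPM. In the fed library 5129 of 7826 hepatocytes had no UMI of either gene, so its low part is an arbitrary share of tied cells. In shallow bins its high part may hold such cells too. Of 2008 genes with 50 CPM or more in every library, 196 were higher in the high cells in all 5 libraries and 281 were lower. No count expected from the signs alone was worked out, so these counts are a description. The lowest 5 by the value nearest to 0 were Cyp2e1, Cyp2c37, Cyp2c29, Mup17 and Slco1b2. The first 3 are cytochrome P450 genes, and all 3 are among the central landmark genes. Cyp2e1 was at -0.76, -2.50, -1.39, -0.54 and -0.59 and Cyp2c29 at -0.62, -2.56, -1.43, -0.65 and -0.36. At 4 h the low cells had 4305 CPM of Cyp2e1 and the high cells 760.1 CPM.

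The highest 5 were Ndufa5, Uqcr11 and Ndufs5, nuclear genes of the respiratory chain, Rps10, a ribosomal protein gene, and Wfdc21. Their ratios ran from 0.17 to 0.79 over the 5 genes and 5 libraries. At 0 and 4 h they were smaller in size than those of the lowest 5. At 24 h Ndufs5 (0.79), Ndufa5 (0.74) and Uqcr11 (0.61) were further from equal than each of the lowest 5. Within these depth bins high cells had the lower median mitochondrial share in each library, at 11.7 against 12.1% when fed, 17.1 against 20.6% at 4 h, 9.49 against 9.80% at 8 h, 12.2 against 15.6% at 16 h and 13.5 against 17.8% at 24 h. Without the depth bins the 8 h library went the other way, at 9.70% in high and 9.58% in low cells. Of the other members, Slc39a14 was within 0.09 of equal between high and low cells in all 5 libraries, and Slc30a1 and Slc30a10 were lower in high cells at 24 h (-0.50 and -0.43), while Slc30a1 was higher at 16 h (0.17, 0.04 to 0.31) and Mtf1 was lower at 16 h (-0.42) and higher at 24 h (0.30).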

How the data were processed

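The deposited values are UMI counts per gene and barcode, made with Cell Ranger 6.0.1 on mm10 per the submitters' processing notes, with no further normalization in the file. The annotation version and the strand setting are not given in the sources used here. Libraries were made with the 10x Genomics 3′ v3 kit, per the labels' protocols. Barcodes were assigned to libraries by the deposited barcode table, which held no cell type or zone, and every column of sample values was mapped (0 others).

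Counts were summed over the hepatocytes of a library and divided by nuclear-encoded UMIs, leaving out 13 mitochondrial genes. Intervals are exact Poisson for CPM, exact Clopper-Pearson for shares and exact conditional binomial for ratios, at 95%. With 1 library per time no test was made and no p-value is given, so each difference describes 2 libraries. A gene was called at 2-fold or more with 50 CPM or more in either library, and at 1.5-fold between parts of the axis. The axis was the log2 ratio of Cyp2f2 to Cyp2e1 UMIs per 10000, each plus 1. No clustering was used and doublets were not removed. The ratio intervals were checked only on counts simulated as Poisson, the counting error that they assume. That check holds no spread between cells or animals.

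Genes named are the 6 members, list genes past 2-fold and list extremes, the 5 genes nearest in pattern, and the 5 highest and 5 lowest genes between high and low cells that had 1 sign in 5 libraries. Slc39a4 and Slc39a8 were named after their values were seen. The members and lists were chosen with earlier results of these data known. Of the 32285 gene identifiers 99.8% were found in GENCODE M21, the source of positions, and upstream sequences are from RefSeq on GRCm38.p6, with 5 of the 6 members matched. TMM factors came from edgeR 4.0.16 and median-of-ratios factors from DESeq2 1.42.0 in R 4.3.3, sequences were handled with biopython 1.88, figures were drawn with matplotlib 3.10.9, and the rest used pandas 2.3.3, scipy 1.17.1 and numpy 2.4.6 under python 3.11.15.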

Additional observations from a re-analysis of the deposited data

Results flagged for a closer look

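Barcodes under 2% mitochondrial UMIs, which enter none of the hepatocyte values, held Mt1 and Mt2 at 15355 CPM at 4 h, 12131 CPM at 8 h, 5916 CPM at 16 h and 4040.4 CPM at 24 h. They stand out because this is a signal outside the cells analysed and above the 382 CPM of the same kind of barcode in the fed library, and because it lies above the hepatocytes of the same library, at 7147, 7865, 1957 and 2044 CPM. Slc39a14, Slc30a1 and Slc30a10 were in contrast below their hepatocyte level in these barcodes in all 5 libraries. Erythroid markers summed in them to 34.9, 49.7, 53.4 and 3354 CPM at the same times and to 416 CPM when fed, and their part in the result was not tested.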

How the results depend on the processing

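No paired analysis was possible because there was 1 library at each time. A value is said to have moved where an alternative left its 95% counting interval, or took a count of genes past 1.5 times. The Mt1 and Mt2 ratio to fed (log2 values of 5.69, 5.83, 3.82 and 3.89 in time order) was positive in all 11 alternatives. It became 5.85, 6.04, 3.91 and 4.06 with TMM factors, 5.84, 6.02, 3.86 and 4.03 with median-of-ratios factors, and 5.57 at 4 h and 3.81 at 24 h over all UMIs. Without genes over 1% it was 5.63 at 4 h. With barcodes under 2% mitochondrial UMIs it was 5.76, 5.64, 3.63 and 4.06, at 2 to 15% 6.15, 5.77, 4.08 and 4.13, and at 10 to 30%, chosen after seeing the data, 5.82, 5.96, 3.89 and 3.94. Cells of 3000 UMIs or more gave 5.90 and 3.96 for 8 and 16 h, and the mean per cell 5.59 and 3.62.

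The portal to central ratio (-0.03, 0.43, 0.18, 0.10 and -0.55 at 0, 4, 8, 16 and 24 h) moved more. It was -0.57, -0.25, 0.10, -0.010 and -0.86 with barcodes under 2%. At 2 to 15% it was -0.089, 0.25 and -0.68 at 4, 16 and 24 h, and at 10 to 30% 0.20, 0.58 and -0.34 at 0, 4 and 24 h. With 3000 UMIs or more it was 0.11, 0.48, 0.13, 0.060 and -0.46, and without other cell types 0.087 at 0 h. As a mean per cell it was -0.61, -0.21, 0.20 and -0.82 at 0, 4, 8 and 24 h. The landmark score gave 0.48, 0.20, -0.20 and -0.39 and 5 parts gave 0.60, 0.20, 0.0091 and -0.76 at 4, 8, 16 and 24 h. Within depth bins it was 0.12, -0.0013 and -0.38 at 4, 8 and 24 h, and within depth bins of cells with 3000 UMIs or more, added after seeing the data, 0.14, 0.17, 0.0024, 0.13 and -0.34. The cause was not tested.

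Genes past 2-fold numbered 369 higher at 8 h with TMM factors, 300 higher at 24 h with barcodes under 2%, and 347 lower at 4 h at 2 to 15%. A minimum of 10 CPM gave 268, 420, 211 and 348 higher and 441, 830, 265 and 645 lower, and no minimum 843, 1000, 959 and 1288 higher and 2472, 2925, 1926 and 2615 lower, since more genes were tested. Of 264 ratios to fed of the 6 members 94 moved and 15 changed sign, none of them of Mt1 or Mt2, and of 300 of their zone ratios 118 moved and 21 changed sign. Scaling factors were not run on zone ratios or shares, which they leave as they are within a library. Mtf1 had 512 to 771 UMIs a library, which limits what its gradients can show.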
